A study of Rattus norvegicus with 46 samples.

Results

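Kupffer cells are the resident macrophages of the liver. They sit in the sinusoids, take up bacteria, lipoproteins and old red cells from portal blood, and present what they have digested. Muscle holds its own macrophages between the fibres. A macrophage is known by the growth factor receptor it depends on (Csf1r), by its lineage factor PU.1 (Spi1), by scavenger receptors and complement C1q, and by lysosomal enzymes. Kupffer cells add a set of receptors of their own, among them Clec4f, Vsig4, Marco and Timd4.

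A list of 34 such genes was followed here by symbol. The rule takes them by name and uses no threshold on a value, but the list was drawn up with earlier results of these data known. Of the 34 genes, 32 had a row among the 32552 genes of the count table, while Timd4 and Itgam were not analysed here. The libraries were bulk RNA of liver and quadriceps muscle from rats labelled as wild type (WT). Rats given CagriSema, which joins the amylin analog cagrilintide with the GLP-1 receptor agonist semaglutide, gave 7 liver and 8 quadriceps libraries. Weight-matched rats, whose food was restricted to the same body weight, gave 8 and 8, and vehicle rats, the controls, gave 8 and 7. The design text, which speaks of liver alone, describes DIO (diet-induced obese) rats treated for 20 days. Whether the libraries of a group are separate rats is not in the labels, so p-values measure the spread between libraries.

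Totals were 9888858 to 15948219 counts per liver library and 11462369 to 16525274 counts per quadriceps library. Values below are CPM, counts scaled to a common library size with TMM factors, and a gene passed the test at an adjusted p under 0.05 in edgeR's quasi-likelihood test over all genes kept by a filter on low counts. The filter kept 31 members in liver, all but Trem2, and 28 in quadriceps, all but Clec4f, Vsig4, Cd5l and Marco. The tissues matched their labels. The 14 hepatocyte markers summed to 117920 to 204990 CPM over liver libraries, against 40.1 to 122.7 CPM over quadriceps libraries. The 8 muscle fibre markers summed in liver to at most 1.05 CPM in CagriSema and 0.821 CPM in weight-matched libraries and to 88.6 CPM in vehicle library 1, against 117240 to 208360 CPM in quadriceps. Because each library is a whole piece of tissue, fewer macrophages and less RNA per macrophage cannot be told apart.

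The promoters of macrophage genes are known for sites of PU.1, whose core reads GAGGAA on either strand. Promoter sequences were taken from RefSeq (rat build GRCr8), where 24 of the 32 members matched by symbol, and the 250 bases before the start of each gene were searched on both strands. GAGGAA was present in 18 of 24 member promoters (75%) and in 23.3% of all 33469 promoters. The longer GAGGAAGT, which contains GAGGAA and so overlaps it, was in 2 of 24 (8.33%) against 2.04% of all. TTGCNNAA, the core bound by C/EBP factors, was in 2 of 24 (8.33%) against 9.22%. Another motif searched, TGCTGA, was in 6 of 24 (25%) against 15.1% of all. The 6 without GAGGAA in this window were Clec4f, Vsig4, Cd163, C1qa, Coro1a and Lgmn. These matches describe letters and show no binding.

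The 2 promoters with the longer motif are shown first, over the 120 bases before the start, with that motif in capitals (chr2:185775276-185775395, plus strand, for Ctss and chr2:197087897-197088016, minus strand, for Cd53, GRCr8). In both it lies on the opposite strand, beginning at base -17 in Ctss and base -46 in Cd53.
Ctss: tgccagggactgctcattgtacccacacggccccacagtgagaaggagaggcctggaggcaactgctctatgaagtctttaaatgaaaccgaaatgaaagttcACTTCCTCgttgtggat
Cd53: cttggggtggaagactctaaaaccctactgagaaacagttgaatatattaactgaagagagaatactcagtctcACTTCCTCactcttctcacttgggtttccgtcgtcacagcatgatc

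For comparison, 6 promoters with only the short motif are given as 60-base windows around the match nearest the start, with GAGGAA or its opposite-strand reading TTCCTC in capitals. They were chosen after the values were seen, as genes whose levels are described below, and all lie on the minus strand of GRCr8: Cd68 at chr10:54882442-54882501, Cybb at chrX:16065066-16065125, Lyz2 at chr7:54798025-54798084, C1qb at chr5:154407885-154407944, Marco at chr13:34201327-34201386 and Trem2 at chr9:20151780-20151839.
Cd68: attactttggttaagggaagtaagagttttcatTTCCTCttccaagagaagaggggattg
Cybb: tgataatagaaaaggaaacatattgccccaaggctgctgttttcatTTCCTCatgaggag
Lyz2: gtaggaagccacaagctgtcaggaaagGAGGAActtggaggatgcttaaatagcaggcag
C1qb: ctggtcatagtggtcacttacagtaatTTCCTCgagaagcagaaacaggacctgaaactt
Marco: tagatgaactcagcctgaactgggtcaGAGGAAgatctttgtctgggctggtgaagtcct
Trem2: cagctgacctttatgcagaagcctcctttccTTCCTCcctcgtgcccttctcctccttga

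The motif begins at base -27 in Cd68, -14 in Cybb, -46 in Lyz2, -104 in Marco and -29 in Trem2. The levels of these 6 genes did not go one way between tissues: 4 were higher in liver, while Lyz2 and Trem2 were lower there.

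Between tissues, 24 macrophage genes were higher in liver by log2 fold changes from 0.73 to 4.44, and Lyz2, lysozyme, was lower there. Receptors that mark Kupffer cells were high in liver and nearly missing from muscle, and Trem2, a lipid-sensing receptor of tissue macrophages, was nearly missing from liver. Of the 27 members kept by the filter in both tissues, 25 passed the test over both tissues scaled together, 24 higher and 1 lower in liver. Of the 11131 genes kept in both tissues, 89% passed, 46% higher and 43% lower. The median log2 fold change, liver over quadriceps, was 1.92 for these 27 members and 0.05 for those genes. The other 5 members entered the joint table only through the tissue where they are high, so for them counts and levels are given and no test. With them the joint table called 30 of 32 members, 28 higher and 2 lower, beside 90.7% of all genes in it, 47.3% higher and 43.4% lower, and nothing is read from that count.

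Clec4f, a lectin that captures glycans on Kupffer cells, had 28.2 to 208.6 CPM over the 23 liver libraries, and 9 counts in all in the 23 quadriceps libraries, 19 of them at 0. Its mean was 121.1 CPM in liver and 0.028 CPM in quadriceps. Cd5l, a secreted protein of macrophages that binds lipids and antibodies, averaged 63.1 CPM in liver and came to 21 counts in all in quadriceps. Vsig4, a receptor for complement C3 fragments, averaged 17.3 CPM in liver and came to 30 counts in quadriceps. Marco, a scavenger receptor for bacteria, had no count in any quadriceps library. Taking 3 counts over the whole group as a floor, which is 0.0094 CPM, it was at least 1305-fold higher in liver (12.3 CPM over the group). The floor covers counting error alone.

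Every liver library lay above every quadriceps library for 7 of 32 members, beside 23.1% of all genes. That count is near the share of all genes, and nothing is read from it. The 7 were Clec4f, Cd5l, Vsig4 and Marco, kept through liver, and Msr1, Cd14 and Hmox1. Msr1, scavenger receptor A, ranged over 11.4 to 36.97 CPM in liver, and its quadriceps range was 0 to 6.91 CPM (log2 fold change ± SE of 4.44 ± 0.23). Cd14, the co-receptor for endotoxin, lay between 10.2 and 61.3 CPM in liver, and between 0.831 and 6.19 CPM in quadriceps (3.74 ± 0.19). Hmox1, the enzyme that opens heme, spanned 18.5 to 75.9 CPM in liver libraries, against 2.61 to 14.1 CPM in quadriceps libraries (2.90 ± 0.15).

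Other members passed although their libraries overlapped between the tissues. The 3 chains of C1q, whose genes C1qb, C1qc and C1qa lie side by side on chromosome 5 of GRCr8, were higher in liver by 2.47 ± 0.19 (C1qa), 2.25 ± 0.18 (C1qb) and 1.98 ± 0.16 (C1qc). The mannose receptor Mrc1 was higher by 2.61 ± 0.17, and Cd163, which takes up hemoglobin bound to haptoglobin, by 2.21 ± 0.19. Differences were smaller for the lineage genes Csf1r (1.29 ± 0.18) and Spi1 (0.98 ± 0.13) and for the lysosomal protease Lgmn (0.94 ± 0.11), and smallest among those called for Cd74, the invariant chain of class II antigen presentation (0.73 ± 0.14, adjusted p = 8.86e-06). The others called among the 27 and higher in liver were between 1.40 (Coro1a, an actin-binding protein of leukocytes) and 2.65 (Aif1, a calcium-binding protein of macrophages).

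Lyz2 went the other way, with 5.36 to 23.4 CPM over liver libraries, against 7.08 to 92.1 CPM over quadriceps libraries (-1.37 ± 0.22, adjusted p = 1.42e-07). Trem2 had 16 counts in all in liver, where 15 of 23 libraries were at 0, and 383 in quadriceps, where none was at 0 and the range was 0.173 to 3.81 CPM. Tlr4, the endotoxin receptor, did not pass at 0.25 ± 0.16 (adjusted p = 0.151). Gpnmb, a lysosomal glycoprotein of lipid-loaded macrophages, did not pass at -0.29 ± 0.30 (adjusted p = 0.365), with levels of 3.88 to 35.4 CPM over liver libraries, against 3.52 to 105.4 CPM over quadriceps libraries. Without liver vehicle libraries 4 and 6 and quadriceps vehicle libraries 2 and 5, Tlr4 passed at 0.40 (adjusted p = 0.0207) and Gpnmb was at 0.20 (adjusted p = 0.506).

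**Figure D1:**
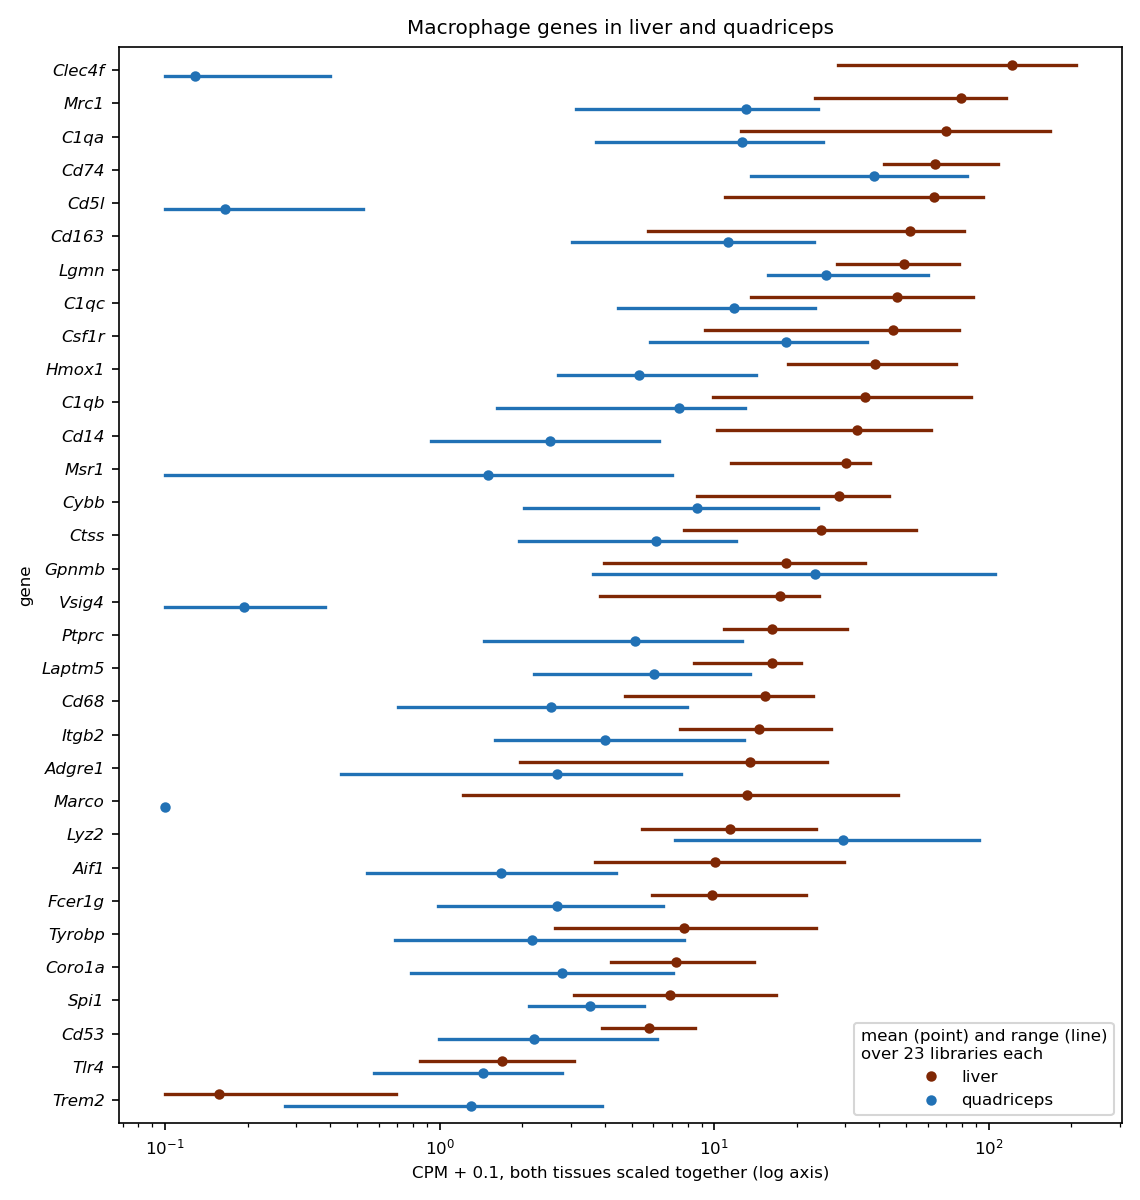
Level of each macrophage gene with a row in the 23 liver and 23 quadriceps libraries, as CPM + 0.1 on a log axis with both tissues scaled together; points are means and lines run over all libraries. The lines do not meet for Clec4f, Cd5l, Vsig4, Marco, Msr1, Cd14 and Hmox1, and Lyz2, Gpnmb and Trem2 are the genes whose mean is higher in quadriceps.

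Within liver, single vehicle libraries stood apart in these genes. Liver vehicle library 6 was the lowest of all 23 for 24 of 31 members, against 7.53% of all genes, and lay a median of 1.47 log2 units below the members' medians. Its mitochondrially encoded genes took 9.29% of counts, the highest share in liver. Liver vehicle library 4 was the highest for 16 members, against 30.7% of all genes, and the lowest for none, against 31.9% of all. It held 88.5 CPM of C1qb and 24.1 CPM of Tyrobp, the adaptor of Trem2 and other receptors. Surface receptors went both ways in this library. Clec4f (214.2 CPM), Vsig4 (24.7 CPM) and Marco (48.0 CPM) had their highest liver value there, while Csf1r (26.3 CPM) and Cd163 (21.6 CPM) were low. Ribosomal protein genes took 1.84% of the counts of library 4, and the 5 blood and erythroid markers summed to 755.8 CPM there. The next vehicle library had 340.1 CPM. Liver vehicle library 5 was the highest for 8 of 31 members, against 5.16% of all genes. It lay a median of 0.54 log2 units above the members' medians, where library 4 lay 0.50 above. Fits below that leave out libraries 4 and 6 still hold library 5. The part of these signs in the results was not tested.

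**Figure D2:**
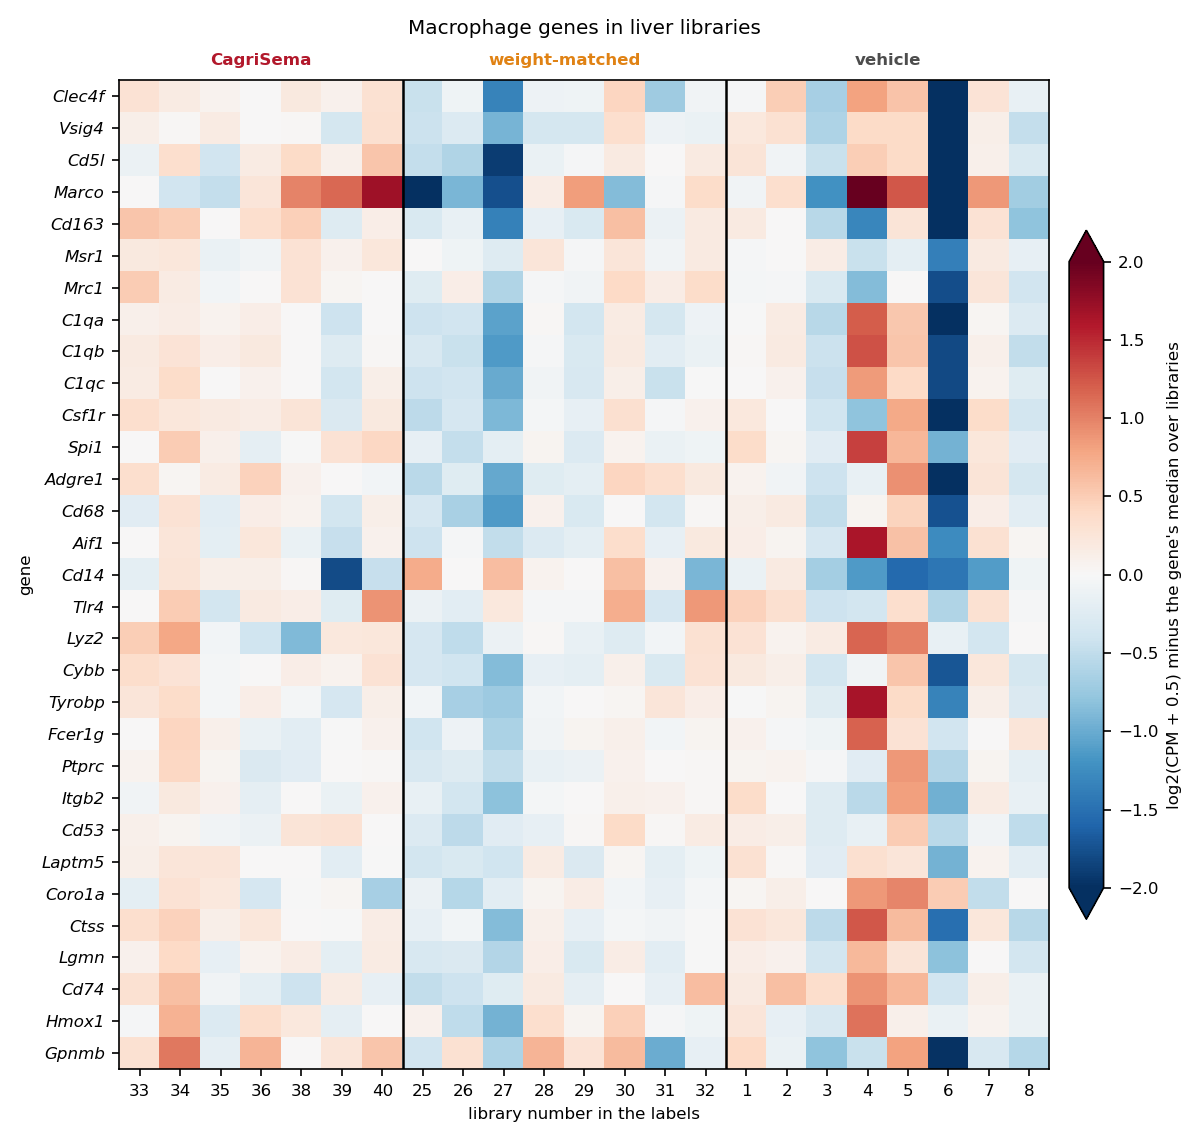
Each of the 31 macrophage genes tested in liver (rows) in each library (columns, numbered as in the labels), coloured by log2(CPM + 0.5) minus the gene's median over libraries, with colours ending at 2 units. Vehicle library 6 is blue in most rows, vehicle library 4 is red for the C1q chains, Spi1, Aif1, Tyrobp and Ctss, and weight-matched library 27 is blue in most rows. The CagriSema libraries vary least in their median over the genes, though not in every gene.

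In CagriSema livers, no member differed from weight-matched livers past the threshold, yet nearly all point estimates lay on one side. Of 31 members 30 had a positive log2 fold change, with a median of 0.26 where the median of all genes was 0.00. None was called by edgeR or by DESeq2, and none had an unadjusted p under 0.05 in either. Over all genes edgeR called 0.535%, and 10.6% had an unadjusted p under 0.05. The members share libraries and cells, so 30 estimates on one side are not 30 observations.

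Clec4f had 122.0, 136.9 and 150.5 CPM in CagriSema livers (lowest, median, highest), against 48.0, 114.5 and 164.2 CPM in weight-matched livers (0.39 ± 0.27, adjusted p = 0.737). The 7 CagriSema libraries lay within the range of the weight-matched ones, where libraries 27 and 31 were low. C1qb had 30.2, 39.8 and 43.7 CPM in CagriSema livers, against 16.2, 30.1 and 41.1 CPM in weight-matched livers (0.35 ± 0.27, adjusted p = 0.782).

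Ctss, the protease that trims the invariant chain, had 23.2, 25.97 and 32.2 CPM in CagriSema livers, against 12.5, 22.3 and 25.1 CPM in weight-matched livers (0.33 ± 0.25, adjusted p = 0.770). The groups overlapped only between 23.2 and 25.1 CPM. Cybb, the electron-carrying chain of the phagocyte oxidase, had the lowest p of the members, with 29.04, 32.5 and 38.1 CPM in CagriSema and 16.1, 24.9 and 36.6 CPM in weight-matched livers (0.37 ± 0.21, adjusted p = 0.606). Marco had the largest estimate and the widest error, with 7.06, 12.0 and 33.7 CPM in CagriSema and 1.13, 7.57 and 18.3 CPM in weight-matched livers (0.96 ± 0.56, adjusted p = 0.611).

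By role, the 7 scavenger and phagocytic receptors had a median of 0.39, the 3 C1q chains of 0.35, the 5 lineage and general markers of 0.29 and the 5 general leukocyte genes of 0.14. Cd14 was the exception to the common sign, at -0.40 ± 0.29 (adjusted p = 0.758). The shared estimate of spread includes the vehicle libraries. Vehicle libraries do not enter this difference, so leaving them out could hardly move the median and is no check of it. Without vehicle libraries 4 and 6 the median was 0.27 and 7 members had an unadjusted p under 0.05. None was called, and the lowest adjusted p was 0.158 (Cybb). Without weight-matched library 27 as well, a choice made after seeing the data, the median was 0.19 and 3 members had an unadjusted p under 0.05. The share of all genes at that p was not counted in these fits, so nothing is read from the 7 and the 3.

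The spread itself differed in size between the groups. The median deviation of the members in a library ran from -0.01 to 0.30 log2 units over the CagriSema livers (SD 0.106, n = 7), from -0.77 to 0.17 over the weight-matched livers (SD 0.293, n = 8) and from -1.47 to 0.54 over the vehicle livers (SD 0.640, n = 8). Single libraries carried much of it: the SD was 0.0584 without CagriSema library 34, 0.188 without weight-matched library 27 and 0.342 without vehicle library 6. Single genes could go the other way. Lyz2 (SD 4.27 CPM in CagriSema, 1.76 CPM in weight-matched livers) and Coro1a (1.52 and 0.957 CPM) varied more in CagriSema livers. The difference in spread was not tested.

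**Figure D3:**
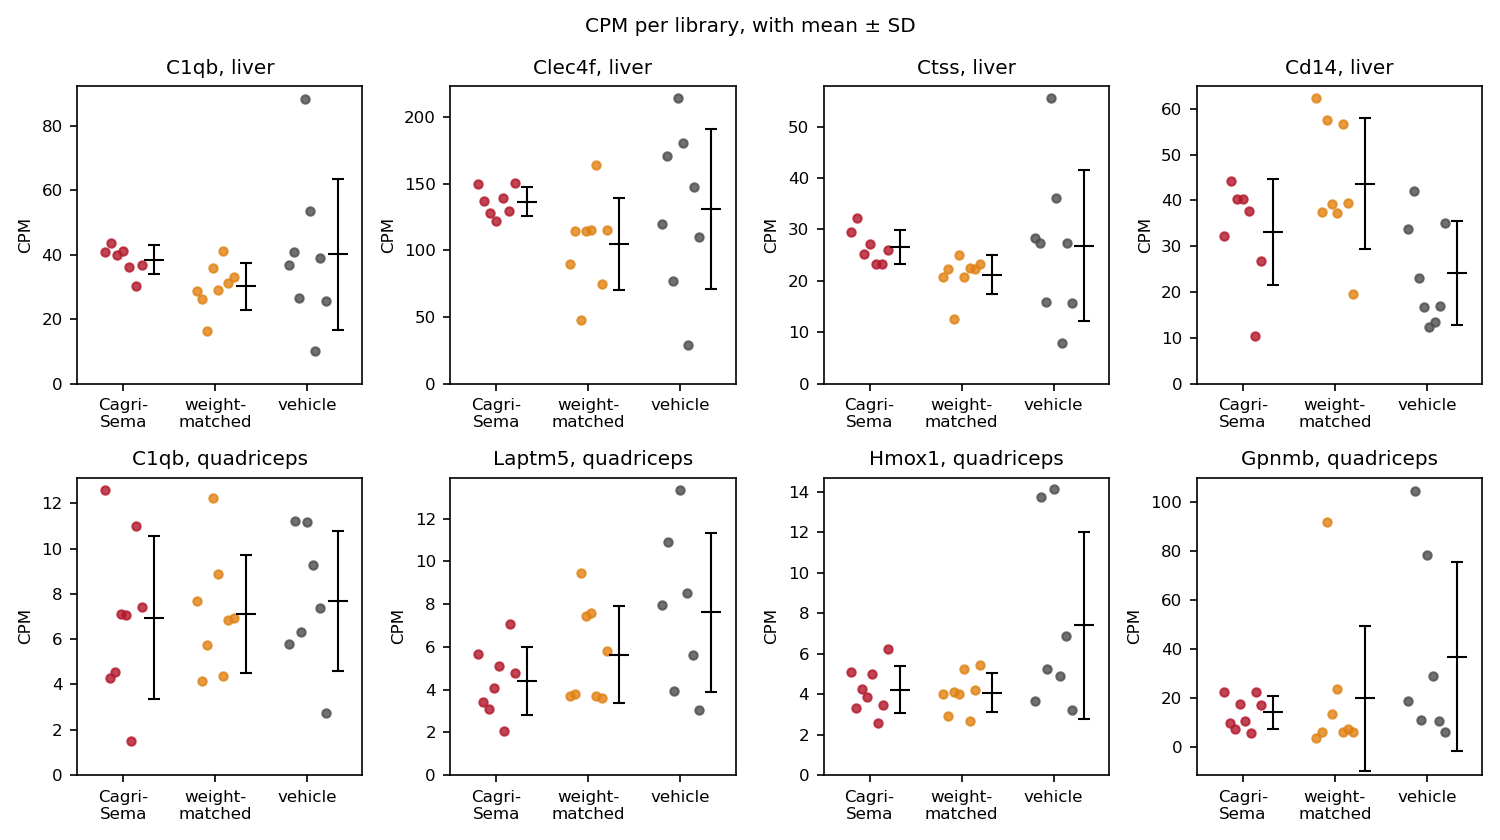
CPM of 4 macrophage genes in liver (upper row) and 4 in quadriceps (lower row), 1 point per library, with mean ± SD as bars beside the points. In liver the CagriSema points lie close together for C1qb, Clec4f and Ctss. For Cd14 they run from 10.4 to 44.3 CPM, and the highest Cd14 points are weight-matched libraries. In quadriceps, 2 vehicle libraries stand above the rest for Hmox1 and Gpnmb, and 1 weight-matched library for Gpnmb.

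Against vehicle, CagriSema livers had 18 positive and 13 negative estimates with a median of 0.06, and no member passed, where 0.354% of all genes did. An unadjusted p under 0.05 was found for 2 members by edgeR, beside 17.8% of all genes, and for 3 by DESeq2, which called none. Mrc1, an endocytic receptor of macrophages and sinusoidal endothelium, had 78.5, 84.5 and 116.9 CPM in CagriSema livers, against 23.7, 73.0 and 97.5 CPM in vehicle livers (0.44 ± 0.20, adjusted p = 0.264). Coro1a had 4.20, 6.84 and 8.56 CPM in CagriSema livers, against 4.75, 7.33 and 14.1 CPM in vehicle livers (-0.41 ± 0.19, adjusted p = 0.268). Both pairs of groups overlapped.

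All 7 scavenger and phagocytic receptors had positive estimates, from 0.06 for Clec4f to 0.62 ± 0.33 for Cd163. Cd163 had 45.2, 69.1 and 80.2 CPM in CagriSema livers, against 5.78, 45.8 and 66.6 CPM in vehicle livers (adjusted p = 0.316). Its 2 lowest vehicle libraries were 6 and 4. Gpnmb had the largest positive estimate, with 15.0, 21.2 and 36.03 CPM in CagriSema and 3.96, 12.99 and 30.1 CPM in vehicle livers (0.64 ± 0.31, adjusted p = 0.282). The adaptors Tyrobp (-0.18 ± 0.29) and Fcer1g (-0.18 ± 0.18), which carry signals of Fc and Trem receptors, and Aif1 (-0.37 ± 0.27) were below 0. Without vehicle libraries 4 and 6 the median was 0.03 with 22 of 31 positive. With single libraries left out it ran from -0.07 without vehicle library 6 to 0.19 without vehicle library 4. These libraries stand apart in the members, so leaving them out moves the median by construction and is no separate check.

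Against vehicle, weight-matched livers had 7.02% of all genes tested called, and none of the 31 members among them. Positive estimates were found for 7 members and negative ones for 24, with a median of -0.19. An unadjusted p under 0.05 was found for 4 of 31 by edgeR, beside 24.4% of all genes, and for 6 by DESeq2. Cd14 had the lowest p: its levels were 19.5, 39.3 and 62.4 CPM in weight-matched livers, against 12.3, 19.9 and 42.1 CPM in vehicle livers, a difference of 0.85 ± 0.29 (adjusted p = 0.071). The weight-matched libraries lay mostly above the vehicle ones, with library 32 low among them. DESeq2 called it at an adjusted p of 0.0348. Over the 16 fits that left out 1 library its adjusted p ran from 0.0334 to 0.139, under the threshold without vehicle library 2 and without weight-matched library 32. Without vehicle libraries 4 and 6 the log2 fold change was 0.69 (adjusted p = 0.203).

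The other members with an unadjusted p under 0.05 lay below 0, and none passed: Coro1a at -0.46 ± 0.19 (adjusted p = 0.136), Lyz2 at -0.50 ± 0.23 (adjusted p = 0.180) and Cd74 at -0.39 ± 0.18 (adjusted p = 0.192). The C1q chains had -0.37 ± 0.29 (C1qa), -0.41 ± 0.26 (C1qb) and -0.30 ± 0.23 (C1qc). Spi1 had 4.43, 5.67 and 6.67 CPM in weight-matched livers, against 3.04, 7.01 and 17.1 CPM in vehicle livers (-0.46 ± 0.23, adjusted p = 0.210). Mrc1 (0.33 ± 0.20), Cd163 (0.22 ± 0.32), Msr1 (0.21 ± 0.15), Gpnmb (0.27 ± 0.30) and Tlr4 (0.19 ± 0.28) were above 0. Without vehicle libraries 4 and 6 the median was -0.28. With single libraries left out the median ran from -0.33 without vehicle library 6 to -0.11 without vehicle library 4. Vehicle library 6 stands low and library 4 mostly high in the members. Leaving them out moves the median by construction and is no separate check.

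Genes that work beside the members in liver were read from lists chosen with earlier results known. Of the list of transcription factors and niche signals of Kupffer cells, 2 genes are given for weight-matched against vehicle livers. Nr1h3, the oxysterol receptor LXR alpha, fell with weight matching by 0.36 (adjusted p = 0.0194), and was at -0.24 and still called without vehicle libraries 4 and 6. Id1, an inhibitor of DNA-binding factors induced by BMP signals and named here after its value was seen, rose by 1.17 ± 0.32 (adjusted p = 0.0284). Hepatocytes also express Nr1h3.

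Lists of lysosomal enzymes, class II antigen presentation, lipid-associated macrophages and heme recycling held called genes for weight-matched against vehicle livers, and none for CagriSema against either group by edgeR, where 5, 2, 2 and 2 genes of the 4 lists had an unadjusted p under 0.05 against vehicle and 4, 0, 0 and 2 against weight-matched. Over all genes edgeR called 7.02% for weight-matched against vehicle livers, 0.354% for CagriSema against vehicle and 0.535% for CagriSema against weight-matched. With weight matching, 3 of 14 lysosomal genes fell, with Ctsb, cathepsin B, at -0.41 ± 0.09 (adjusted p = 0.00927) and Psap, the saposin precursor, at -0.29 ± 0.08 (adjusted p = 0.0256). Of 7 class II genes 1 fell, RT1-Bb, a class II beta chain (-0.64 ± 0.18, adjusted p = 0.0310). Of 13 genes of lipid-associated macrophages 1 fell, Fabp5, a fatty acid binding protein (-2.74 ± 0.63, adjusted p = 0.0100). Its weight-matched libraries lay between 3.02 and 6.96 CPM, against 2.71 to 111.6 CPM in vehicle libraries with library 4 the highest, and without libraries 4 and 6 it did not pass (-0.96, adjusted p = 0.137). Of 9 heme and iron genes 2 fell, the hepatocyte products Hpx (-0.69 ± 0.15, adjusted p = 0.00875) and Hp (-0.60 ± 0.17, adjusted p = 0.0341). Vehicle library 4 was the highest of its group for both, and without libraries 4 and 6 Hpx was at -0.42 (adjusted p = 0.00308) and Hp at -0.35 (adjusted p = 0.0334). None of the lists of phagocytic receptors (11 tested), macrophage cytokines (8) or toll-like receptors and adaptors (11) held a called gene by edgeR in this comparison, with 2, 1 and 1 at an unadjusted p under 0.05. DESeq2 was not run on these lists. For the called genes named in this paragraph, the CagriSema mean lay between the weight-matched and vehicle means. In CagriSema, weight-matched and vehicle livers, Ctsb averaged 563, 550.5 and 729.3 CPM and RT1-Bb 18.2, 16.6 and 25.9 CPM. In the same order Psap averaged 612.1, 544.2 and 665.5 CPM, Hpx 6159, 4914 and 7926 CPM, and Fabp5 9.45, 4.23 and 28.8 CPM.

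Markers of other cells in liver also differed, where edgeR called 0.354% of all genes for CagriSema against vehicle and 7.02% for weight-matched against vehicle. Against vehicle, CagriSema livers had 2 of 14 hepatocyte markers lower, Pck1, the first enzyme of gluconeogenesis (-0.75 ± 0.14, adjusted p = 0.0433), and Alb, albumin (-0.42 ± 0.09, adjusted p = 0.0449). Of 9 stellate cell and fibroblast markers 1 was higher, the growth factor receptor Pdgfra (0.81 ± 0.17, adjusted p = 0.0449). Without vehicle libraries 4 and 6, Pck1 passed at -0.75, while Alb (-0.36, adjusted p = 0.0790) and Pdgfra (0.63, adjusted p = 0.0590) did not. Pdgfra also rose in weight-matched livers (0.66 ± 0.17, adjusted p = 0.0204), as did Ehd3 of the sinusoidal endothelium (0.62 ± 0.17, adjusted p = 0.0322). Without vehicle libraries 4 and 6 these were at 0.48 and 0.40 and passed. Of the hepatocyte markers 3 fell and 1 rose with weight matching, with Serpina1 at -0.65 ± 0.12 (adjusted p = 0.00262) and Apoa1 at -1.32 ± 0.31 (adjusted p = 0.0121). Without the same libraries they were at -0.48 and -0.86, and Apoa1 did not pass (adjusted p = 0.0722). The other hepatocyte marker that fell and the 1 that rose did not pass either (adjusted p = 0.113 and 0.124). Of 4 blood and erythroid markers tested 3 fell in weight-matched against vehicle livers. Hba-a2, an alpha globin gene, was at -1.67 ± 0.28 (adjusted p = 0.00122), and at -1.36 without vehicle libraries 4 and 6. Of 5 proliferation markers tested 3 fell as well, with Mcm5, a replication helicase subunit, at -2.06 ± 0.44 (adjusted p = 0.00701). Its highest vehicle value was 15.6 CPM in library 5, with 6.16 CPM next. Without vehicle libraries 4 and 6, which leaves library 5 in, Mcm5 was at -2.28 (adjusted p = 0.00435). The 8 markers of recruited monocytes summed to 3.96 to 7.70 CPM in CagriSema, 3.28 to 4.93 CPM in weight-matched and 3.50 to 9.67 CPM in vehicle livers. The 10 neutrophil markers summed to at most 4.68, 3.55 and 8.44 CPM in the same groups. The 10 endothelial markers summed to 413.0 to 557.9 CPM in CagriSema, 397.9 to 577.2 CPM in weight-matched and 217.8 to 486.3 CPM in vehicle livers, with vehicle library 6 the lowest. The 13 T and NK cell markers were also lowest in vehicle library 6 among vehicle livers, at 19.6 CPM. Their part in the members' values was not tested.

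**Figure D4:**
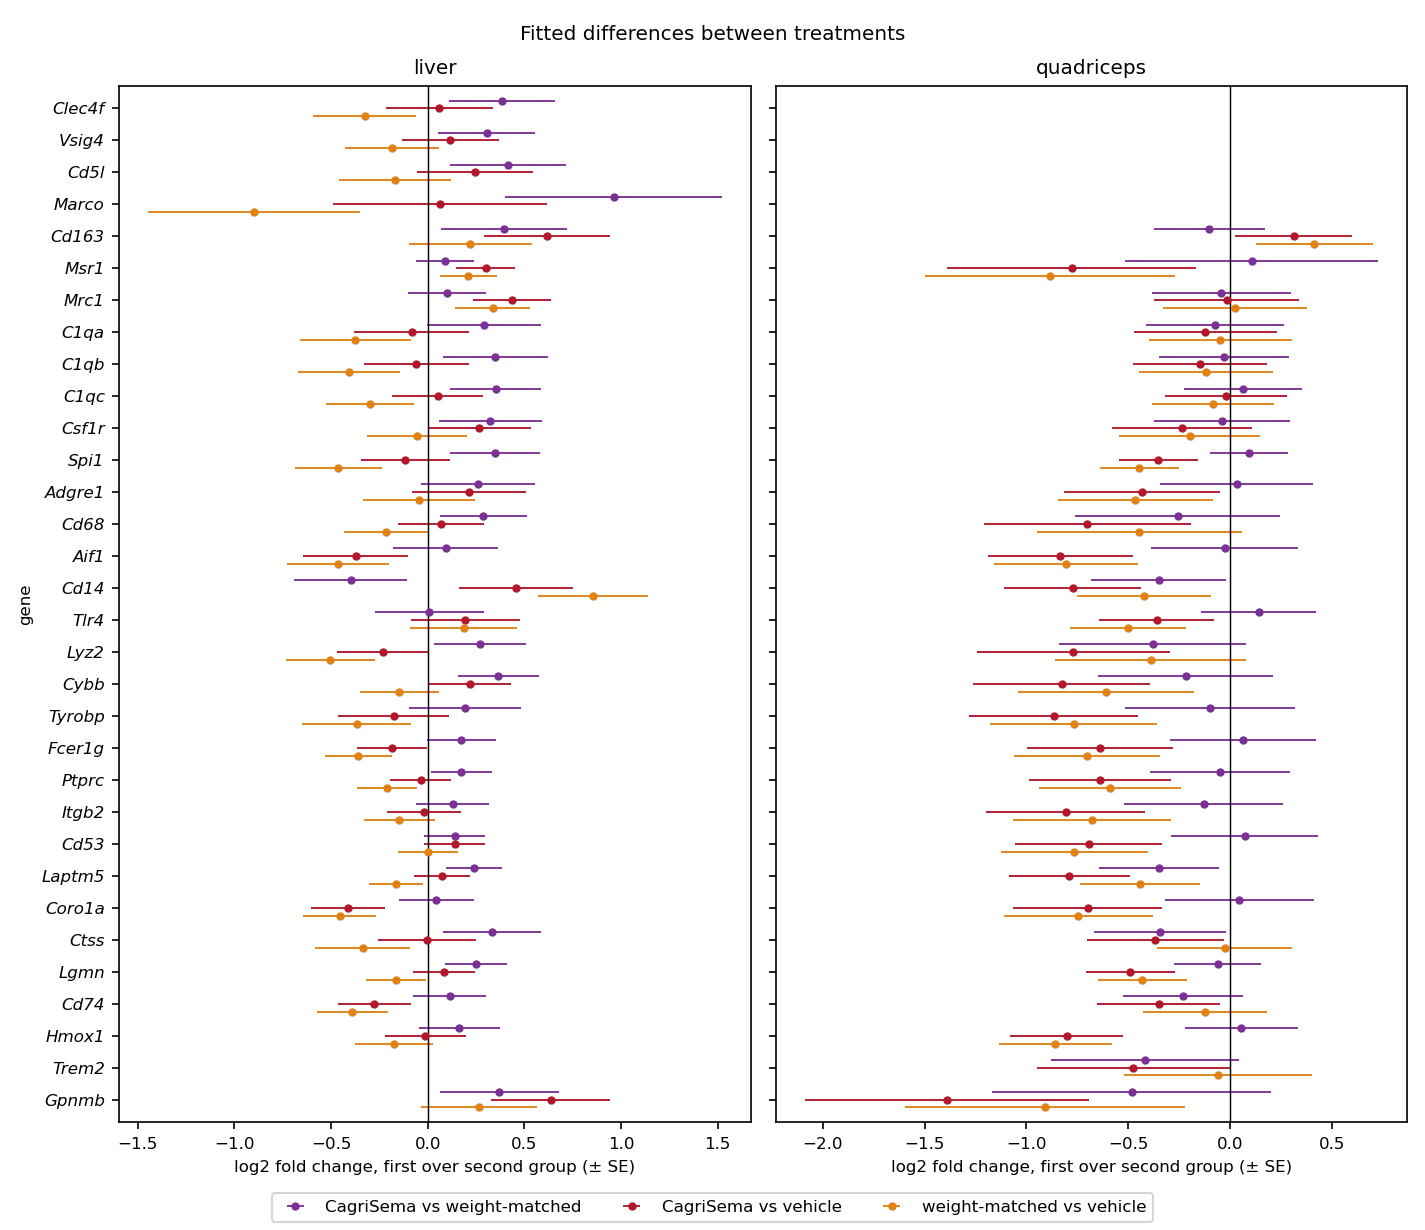
Fitted log2 fold change ± SE of each macrophage gene for CagriSema against weight-matched, CagriSema against vehicle and weight-matched against vehicle, in liver (left) and quadriceps (right); genes left blank were below the filter. No gene passes the adjusted threshold. In liver the CagriSema against weight-matched points lie right of 0 except for Cd14, and in quadriceps both comparisons with vehicle lie left of 0 for most genes other than Cd163, Mrc1 and the C1q chains, which lie near or above 0.

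In quadriceps no member passed in any comparison either, and the estimates against vehicle were mostly below 0. Vehicle libraries 2 and 5 stood apart. They were each the highest of 23 for 11 of 28 members, against 16.2% and 8.60% of all genes, and lay a median of 1.28 and 1.31 log2 units above the members' medians. The recruited monocyte markers summed to 122.3 CPM in vehicle library 2, against 22.02 to 50.7 CPM over the CagriSema and 24.7 to 49.3 CPM over the weight-matched libraries. The 10 stellate cell and fibroblast markers summed to 7136 CPM in the same library, against at most 5000 CPM in CagriSema and 5172 CPM in weight-matched libraries. CagriSema library 38 was at the other end, the lowest for 13 members. Vehicle library 8, the lowest for 5 members, had the lowest sum of fibre markers. The part of these markers in the members' values was not tested.

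**Figure D5:**
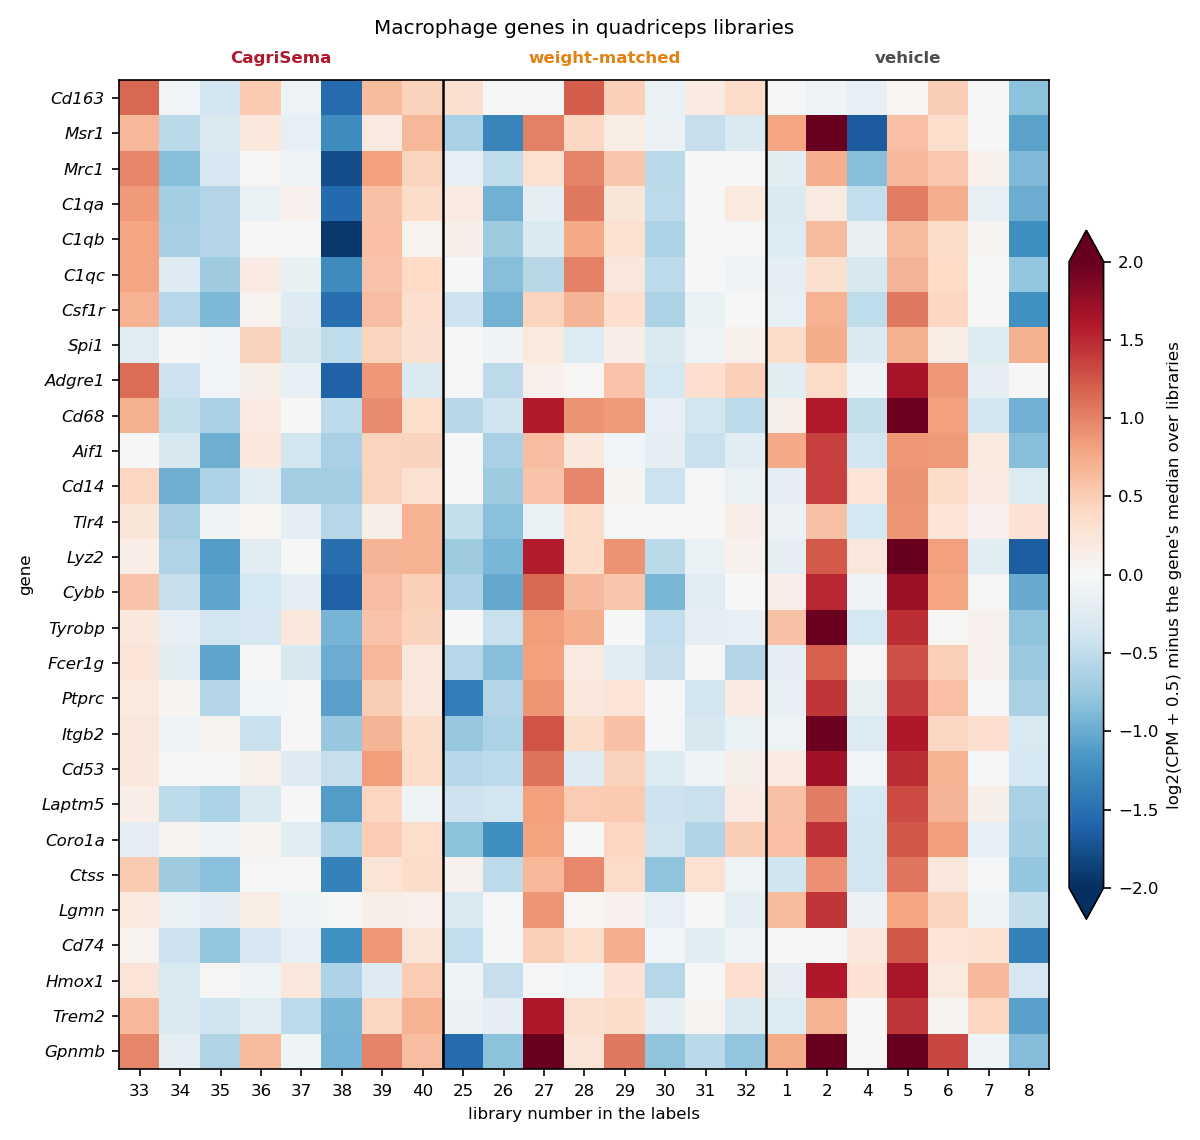
Each of the 28 macrophage genes tested in quadriceps (rows) in each library (columns, numbered as in the labels), coloured by log2(CPM + 0.5) minus the gene's median over libraries, with colours ending at 2 units. Vehicle libraries 2 and 5 and weight-matched library 27 are red in most rows, CagriSema library 38 is blue, and Cd163 is close to its median in vehicle libraries 2 and 5.

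CagriSema quadriceps had 27 of 28 estimates below vehicle, with a median of -0.64 where the median of all genes was -0.01. None passed, beside 0.0321% of all genes. An unadjusted p under 0.05 was found for 6 of 28 by edgeR, beside 10.3% of all genes, and for 8 by DESeq2, which called none. Hmox1 had 2.58, 4.07 and 6.21 CPM in CagriSema quadriceps, against 3.24, 5.27 and 14.1 CPM in vehicle quadriceps (-0.80 ± 0.28, adjusted p = 0.324). The 2 highest vehicle libraries, 5 and 2, had 14.1 and 13.7 CPM, and no other vehicle library passed 6.86 CPM. Laptm5, a lysosomal membrane protein of blood cells, had 2.08, 4.43 and 7.06 CPM in CagriSema and 3.07, 7.95 and 13.4 CPM in vehicle quadriceps (-0.79 ± 0.30, adjusted p = 0.349).

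Gpnmb had the largest estimate, with 5.57, 13.8 and 22.5 CPM in CagriSema and 5.88, 18.9 and 104.1 CPM in vehicle quadriceps (-1.39 ± 0.70, adjusted p = 0.502). Without vehicle libraries 2 and 5 it was -0.11, Hmox1 was -0.17 and Laptm5 was -0.40. Over all members the median then became -0.01, with 13 of 28 above 0 and none at an unadjusted p under 0.05. These 2 vehicle libraries stand high in the members, so leaving them out raises the estimates by construction and is no separate check. With vehicle library 5 alone left out the median was -0.38. The C1q chains differed in size from the leukocyte genes already with all libraries. C1qa, C1qb and C1qc had -0.12 ± 0.35, -0.15 ± 0.33 and -0.02 ± 0.30, while Ptprc, Itgb2, Cd53, Laptm5 and Coro1a, genes of all leukocytes, had between -0.81 and -0.64. That contrast between gene groups was not tested. Cd163 was the single positive one (0.31 ± 0.29).

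Weight-matched quadriceps had 26 of 28 estimates below vehicle, with a median of -0.44. None passed, beside 2.29% of all genes, and 4 by edgeR and 6 by DESeq2 had an unadjusted p under 0.05, beside 19.2% of all genes by edgeR. Hmox1 had 2.67, 4.07 and 5.42 CPM in weight-matched quadriceps, against 3.24, 5.27 and 14.1 CPM in vehicle quadriceps (-0.86 ± 0.28, adjusted p = 0.0917). DESeq2 called it at an adjusted p of 0.0414, as did edgeR at 0.0417 without vehicle library 1, and without vehicle libraries 2 and 5 it was -0.23 (adjusted p = 0.685). Spi1 (-0.44 ± 0.20), Aif1 (-0.81 ± 0.35) and Cd53, a tetraspanin of leukocytes (-0.77 ± 0.36), followed with adjusted p from 0.210 to 0.247.

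Without vehicle libraries 2 and 5 the median of weight-matched over vehicle quadriceps was 0.09, with 18 of 28 above 0. With weight-matched library 27 left out as well it was -0.09. Here too, leaving out libraries that stand high in the members moves the median by construction. Library 27 carried 91.6 CPM of Gpnmb, 68.9 CPM of Lyz2 and 3.79 CPM of Trem2, and 65.9 CPM of Spp1, osteopontin. The next weight-matched libraries had 23.5 CPM of Gpnmb and 3.99 CPM of Spp1. Vehicle library 2 carried 104.1 CPM of Gpnmb and 201.0 CPM of Spp1. Spp1 was named after its values were seen. Among the neighbouring lists, 2 collagen genes of fibroblasts fell with weight matching, Col3a1 (-1.27 ± 0.28, adjusted p = 0.0262) and Col1a1 (-1.52 ± 0.35, adjusted p = 0.0315). Without vehicle libraries 2 and 5 they were at -0.88 (unadjusted p = 0.00425, adjusted p = 0.185) and -1.22 (unadjusted p = 0.00438, adjusted p = 0.186). Of the 8 muscle fibre markers 1 rose, Tnni2, fast skeletal troponin I (0.34 ± 0.09, adjusted p = 0.0457), 6 had an unadjusted p under 0.05 and the median was 0.33. Without the same libraries Tnni2 was at 0.31 and did not pass (adjusted p = 0.191). The part of these markers in the members' values was not tested.

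Between CagriSema and weight-matched quadriceps, 9 of 28 estimates were above 0, the median was -0.05 and the lowest adjusted p was 0.824 (Laptm5, -0.35 ± 0.29). None had an unadjusted p under 0.05 by edgeR or DESeq2, while over all genes edgeR called 0.128% and 7.65% had an unadjusted p under 0.05. The standard errors leave room for changes: Gpnmb was at -0.48 ± 0.68, and at 0.56 without weight-matched library 27. Trem2 had 0.249, 0.685 and 1.81 CPM in CagriSema, against 0.661, 0.892 and 3.79 CPM in weight-matched quadriceps (-0.42 ± 0.46, adjusted p = 0.880).

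Whether treatment moved these genes differently in liver and quadriceps was asked with an interaction term over all 46 libraries. No member passed for CagriSema against weight-matched (0.0213% of all genes called), CagriSema against vehicle (0.149%) or weight-matched against vehicle (2.76%). Of the 27 members kept in both tissues, 0, 7 and 2 had an unadjusted p under 0.05 in the same order, beside 7.58%, 16.7% and 20.3% of genes kept in both tissues. DESeq2 was not run for this term. For CagriSema against vehicle the liver change exceeded the quadriceps change by 2.01 ± 0.75 for Gpnmb (adjusted p = 0.208), 1.22 ± 0.46 for Cd14 (adjusted p = 0.211) and 0.86 ± 0.33 for Laptm5 (adjusted p = 0.211). Without the vehicle libraries 4 and 6 of liver and 2 and 5 of quadriceps, the median of the 27 was 0.01, against 0.55 with them. None then had an unadjusted p under 0.05, beside 8.41% of genes kept in both tissues. Leaving out the quadriceps pair, which stands high in the members, lowers the medians against vehicle by construction. For weight-matched against vehicle the lowest p was that of Cd14 (1.28 ± 0.45, adjusted p = 0.104). Gpnmb was at 1.17, and was called at 2.21 (adjusted p = 0.0491) without quadriceps weight-matched library 27. The median of the 27, 0.31, became -0.27 without the 4 vehicle libraries. For CagriSema against weight-matched the median was 0.28 with and without them. Vehicle libraries do not enter this contrast, so its median could hardly move and the agreement is no check. Without the 4 vehicle libraries 2 members had an unadjusted p under 0.05, beside 14.1% of genes kept in both tissues.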

How the data were processed

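The values were raw counts per gene in a table deposited by the authors, 1 column per library. Per the labels, total RNA was isolated with an RNeasy kit and libraries were made with a Twist system with molecular identifiers. The submitters' processing notes name fastp 0.23.1 and STAR 2.5.2b. Not given in the sources used here: the genome build, the annotation, the counter and any collapsing of identifiers. A column that matched no library label was not used (1 column).

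Genes were filtered with filterByExpr, scaled by TMM and tested with edgeR 4.0.16 (quasi-likelihood; limma 3.58.1, R 4.3.3) in 1 fit per tissue over the 3 treatments, and in 1 fit over both tissues for the tissue difference and the interactions. P-values were Benjamini-Hochberg adjusted over all genes tested (12702 in liver, 12471 in quadriceps, 14110 jointly) with a threshold of 0.05. The scripts were tested on simulated data. Alternatives were DESeq2 1.42.0, RLE scaling, no filter, each pair of groups alone, a replicate block and libraries left out. No 2 libraries of a tissue agreed within sampling noise (chi-square per degree of freedom at least 13.9 in liver and 5.81 in quadriceps over 253 pairs each). All members with a row are named. Genes outside the list are named from fixed lists, up to 2 per list and comparison with the lowest p past the threshold, unless stated. Promoters were printed for members with the longer motif. Members and lists were chosen with earlier results of these data known. Protein sequences were not used here. A result for 1 gene of the neighbouring lists is not reported here.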

Additional observations from a re-analysis of the deposited data

Results flagged for a closer look

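Within each group of 7 or 8 libraries, the highest and the lowest library of each member were compared with their nearest neighbour. A library stood far from the rest of its group in 18 of 177 groups (10.2%), where chance alone gives about 1 in 20 for normally distributed values. CPM was used untransformed and its distribution was not tested, so no excess over chance is read from this. The groups of different genes share libraries.

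In liver, vehicle library 4 was far above the other vehicle libraries for Aif1 (30.5 CPM, next 14.4), Tyrobp (24.1 CPM, next 9.73), Fcer1g (22.1 CPM, next 11.6) and Hmox1 (77.9 CPM, next 43.5). Vehicle library 5 was far above for Ptprc, the leukocyte phosphatase CD45 (30.96 CPM, next 17.5). Weight-matched library 27 was far below the others for Ctss (12.5 CPM, next 20.7). CagriSema library 39 was far below for C1qa (55.1 CPM, next 73.6) and Csf1r (37.8 CPM, next 51.7).

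In quadriceps, weight-matched library 27 was far above the others for Gpnmb (91.6 CPM, next 23.5), Trem2 (3.79 CPM, next 1.33), Lgmn (40.1 CPM, next 22.9) and Fcer1g (4.49 CPM, next 2.69). Weight-matched library 28 was far above for Cd163 (22.4 CPM, next 13.3), C1qa (24.3 CPM, next 13.7) and C1qc (22.7 CPM, next 12.95). Vehicle library 2 was far above for Msr1 (6.83 CPM, next 2.24). Vehicle library 5 was far above for Adgre1, the F4/80 antigen (7.50 CPM, next 4.15), and Cd74 (83.6 CPM, next 43.0).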

How the results depend on the processing

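The count of members called moved from 0 to 1 under DESeq2 for weight-matched against vehicle, in liver (Cd14) and in quadriceps (Hmox1). With single libraries left out it ran from 0 to 1 in these 2 comparisons and in the interaction of weight-matched against vehicle. It stayed at 0 in the other treatment comparisons and at 30 for liver against quadriceps. With single libraries left out, the members' median ran from -0.33 to -0.11 in weight-matched against vehicle livers, from -0.07 to 0.19 in CagriSema against vehicle and from 0.20 to 0.31 in CagriSema against weight-matched livers. In quadriceps the same 3 ranges were -0.59 to -0.30, -0.78 to -0.38 and -0.19 to 0.06. In the fit of the 2 groups alone, 9 members had an unadjusted p under 0.05 for CagriSema against weight-matched livers, and none was called (lowest adjusted p = 0.0987, Ctss). The share of all genes at an unadjusted p under 0.05 was not counted in that fit or under DESeq2. Nothing is read from the 9 or from the DESeq2 counts at that p.

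Liver and quadriceps libraries share numbers, which the labels do not say mark a rat. Correlations were taken on log CPM after each gene's group mean was subtracted. Over 22 pairs those of same-numbered libraries ran from -0.01 to 0.25, and 10 were over 0.1. Among the 7 or 8 quadriceps libraries of the same treatment, 19 of the 22 liver libraries correlated best with their own number. A random pick would match in 1 of 7 or 1 of 8 cases. The main joint fit had no replicate block and took same-numbered libraries as independent. With the replicate block, 0 members were called in the interactions (medians 0.32, 0.50 and 0.21 for CagriSema against weight-matched, CagriSema against vehicle and weight-matched against vehicle) and 30 for liver against quadriceps, all over 32 members, 5 of them kept through 1 tissue. The alternatives without weight-matched library 27 beside other libraries were chosen after seeing the data. Members with few counts, such as Trem2 in liver, allow no treatment comparison at this depth.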
